A study of Rattus norvegicus with 6 samples.

Results

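The genes described here encode 10 growth factor receptor tyrosine kinases of the liver, namely Egfr, Erbb2, Erbb3, Met, Fgfr1, Fgfr2, Fgfr3, Fgfr4, Insr and Igf1r. They were chosen by symbol from an FPKM table of rat liver, in which they are 10 of 19616 genes. Genes were tested when their 6 rats averaged 0.1 FPKM or more, which 14864 genes and 9 of these 10 did, Erbb2 being the exception. Liver RNA was depleted of ribosomal RNA and sequenced from 6 male SD rats, each giving 1 library. The FL group (rats FL2, FL5 and FL12) had been injected intraperitoneally with carbon tetrachloride (CCl4), a solvent that injures hepatocytes and is used to induce hepatic fibrosis, in olive oil. Injections of 2 mL/kg were given over 5 weeks, 2 times a week. The CL group (rats CL5, CL6 and CL7) was injected with olive oil alone at the same volume. The age of the rats is not given in the sources used here.

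Receptor tyrosine kinases span the plasma membrane, and binding of a ligand brings receptors together so that they phosphorylate each other and recruit adaptors, which start the Ras-ERK and PI3K-Akt cascades. In the liver, the EGF receptor and Met carry growth signals to hepatocytes during regeneration, and the insulin receptor governs glucose and lipid metabolism. Fgfr4, together with the co-receptor beta-Klotho, receives the intestinal FGF that restrains bile acid synthesis.

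FPKM are fragments scaled to transcript length and to the mapped fragments of the library, so that levels of different genes can be set side by side per length. They summed to 309425 (CL5), 340467 (CL6) and 315259 (CL7), against 309226 (FL2), 272350 (FL5) and 272110 (FL12). The absolute depth of a library cannot be read from its FPKM. Relative depth was estimated from the most frequent nonzero FPKM value among the U6 genes of each rat. Relative to CL5 it was 0.656 in CL6, 0.84 in CL7, 0.75 in FL5 and 0.677 in both FL2 and FL12. Each comparison sets 3 separate rats against 3, and its error draws both on their spread and on that of genes of similar level. FL2 stood apart from the other FL rats in fibrosis genes, since Col1a1 (a collagen chain) read 17.0 FPKM in FL2 against 101 and 73.7 FPKM in FL5 and FL12. The calls of the receptors are therefore also given without FL2.

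The groups were compared by limma on log2(FPKM + 0.1) with Benjamini-Hochberg adjustment over all genes tested, and this scale understates changes of genes with low FPKM. A differentially expressed gene (DEG) is one whose groups differ at least 2-fold with an adjusted p below 0.05, and a second rule asked for that adjusted p alone. Over all genes tested the median log2 fold change of FL against CL was 0.29, which became 0.08 after median scaling and -0.04 after quantile normalization. Fold changes are therefore also set against this all-gene median.

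The receptors did not move together. By limma, 1 of the 9 tested receptors (Fgfr2) was an upregulated DEG, where 9.29% of all genes tested were, and 0 were downregulated DEGs, where 0.935% of all genes were. By the adjusted p alone, 3 receptors (Fgfr1, Fgfr2 and Fgfr3) were higher and 1 (Egfr) was lower in the FL group, beside 16.9% and 1.94% of all genes, and with quantile normalization Fgfr2 was the one left among the higher ones. At an unadjusted p under 0.05 there were 4 higher and 2 lower receptors, beside 31.5% and 4.04% of all genes, the lower ones being Egfr and Met. The groups did not overlap for 6 receptors, 4 of them higher in the FL group (35.7% of all genes) and 2 lower (4.78% of all genes). The median log2 fold change of the 9 receptors was 0.23, close to the 0.29 of all genes. Both scalings took Fgfr2 below a fold change of 2, leaving no DEG among the receptors, and without FL2 there were 2 DEGs, Fgfr2 and Igf1r. The receptors higher by the adjusted p numbered 1 without CL5, CL7, FL5 or FL12, 3 without CL6 and 4 without FL2. In bulk liver, fewer cells of a type and less RNA per cell cannot be told apart.

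**Figure D1:**
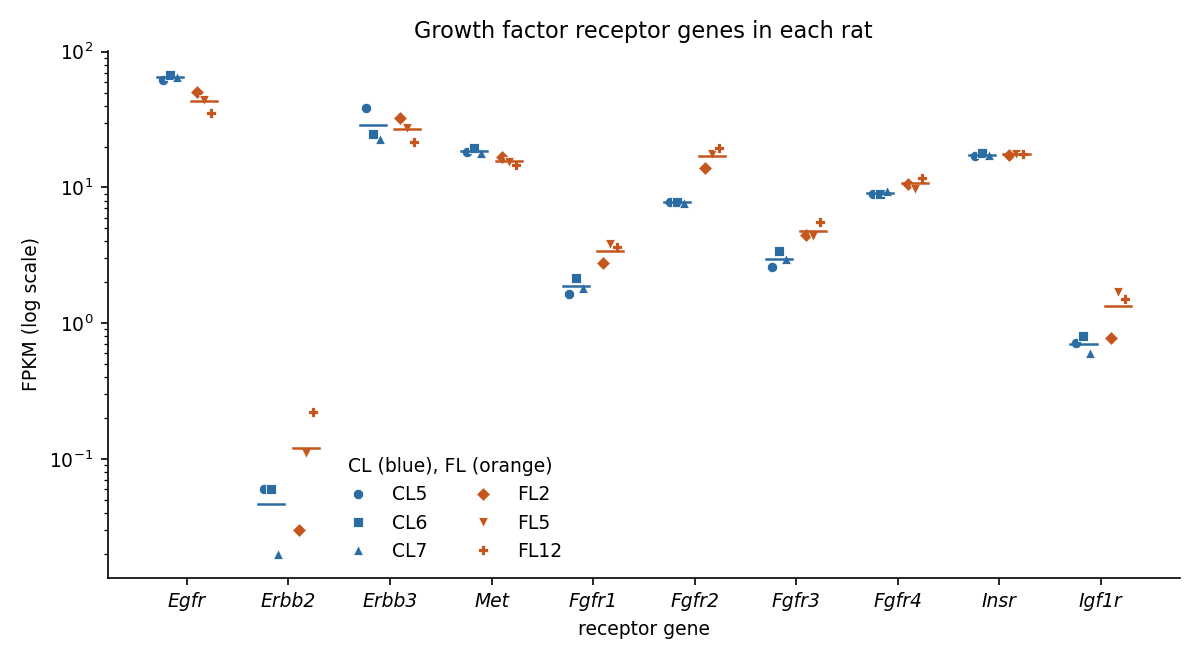
FPKM of the 10 receptor genes in each rat on a log axis, with CL rats in blue, FL rats in orange, 1 symbol per rat and a bar at the mean of each group (n = 3 rats). The 3 FL rats sit above the 3 CL rats for Fgfr1, Fgfr2, Fgfr3 and Fgfr4 and below them for Egfr and Met, and Fgfr4 has a log2 fold change of 0.01 with median scaling and 0.00 with quantile normalization.

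Egfr (ENSRNOG00000004332, chromosome 14) encodes the receptor of EGF, TGF-alpha and related ligands. It read 62.0 (CL5), 67.7 (CL6) and 64.6 (CL7) FPKM, against 50.3 (FL2), 44.0 (FL5) and 35.4 (FL12) FPKM. No FL rat reached the level of any CL rat, FL12 being lowest and FL2 nearest to the CL group. The means were 64.8 ± 2.86 and 43.2 ± 7.45 FPKM (SD, n = 3 rats each). Egfr fell by 0.60 on the log2 scale (standard error 0.15, 95% interval -0.93 to -0.26, limma, adjusted p = 0.0294), which is -0.88 relative to the median of all genes. It was not a DEG, because the change was smaller than 2-fold. Scaling left it lower, with log2 fold changes of -0.82 (median scaling) and -0.66 (quantile normalization). The adjusted p ranged from 0.0136 to 0.0944 over the alternatives and passed in 8 of 14 of them. By limma it passed without FL2 (log2 fold change -0.71, adjusted p = 0.0136) and missed without CL5 (0.069), CL6 (0.0926), CL7 (0.0944), FL5 (0.0829) or FL12 (0.0641).

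Erbb3 (ENSRNOG00000004964, chromosome 7) encodes a neuregulin receptor that has little kinase activity of its own and signals through a partner receptor. It read 38.7 (CL5), 24.9 (CL6) and 22.8 (CL7) FPKM, against 32.4 (FL2), 27.2 (FL5) and 21.6 (FL12) FPKM. The groups overlapped, with CL5 the highest rat and FL12 the lowest. The log2 fold change was -0.07 (standard error 0.23, 95% interval -0.59 to 0.45, limma, adjusted p = 0.846), and it took the other sign without CL5 (0.16) or FL12 (0.08). The adjusted p stayed between 0.463 and 0.869 over the alternatives.

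Erbb2 (ENSRNOG00000006450, chromosome 10) encodes the family member that binds no ligand of its own and serves as partner of the others. It was the lowest of the 10 receptors in every rat, at 0.06 (CL5), 0.06 (CL6) and 0.02 (CL7) FPKM, against 0.03 (FL2), 0.11 (FL5) and 0.22 (FL12) FPKM. The groups overlapped through FL2, and values this low rest on few reads. With no filter on low values, its log2 fold change was 0.50 (standard error 0.35, limma, adjusted p = 0.393).

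Ligands of the EGF receptor family were represented by 11 listed genes, of which 9 were in the table and 6 could be tested. Nrg1, which encodes neuregulin 1, a ligand of Erbb3, was the 1 upregulated DEG of the list, and 1 gene, Egf, named after its values were seen, was lower at an unadjusted p under 0.05. Nrg1 read 0.55 (CL5), 0.49 (CL6) and 0.48 (CL7) FPKM, against 1.25 (FL2), 1.71 (FL5) and 2.33 (FL12) FPKM. Every FL rat was above every CL rat, and the log2 fold change was 1.58 (standard error 0.26, limma, adjusted p = 0.00804), past the threshold in 14 of 14 alternatives (adjusted p from 0.00508 to 0.0398). With a pseudocount of 1 it was 0.86, below 2-fold. The median over the tested ligands was 0.39, 0.20 with median scaling and -0.12 with quantile normalization, and it moved to 0.08 without CL5, 0.04 without FL12 and 0.64 without FL2. Tgfa, the most abundant of them at 2.02 ± 0.459 and 2.69 ± 1.01 FPKM, overlapped between the groups, and Areg was listed at 0 in all 6 rats. Over the 9 lists of ligands, adaptors, regulators and related receptors together, limma found 24 upregulated and 0 downregulated DEGs among 166 genes tested (9.29% and 0.935% of all genes), and 64 genes were higher and 8 lower at an unadjusted p under 0.05 (31.5% and 4.04% of all genes). Median scaling left 14 upregulated DEGs and added 1 downregulated one, in the insulin and IGF list, and quantile normalization left 9 and 0. By the adjusted p, the lists had 42 higher and 2 lower genes (16.9% and 1.94% of all genes). These became 28 and 11 after median scaling (8.75% and 3.59% of all genes), or 18 and 10 after quantile normalization (5.23% and 3.61% of all genes).

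Met (ENSRNOG00000052745, on chromosome 4) encodes the HGF receptor. It was close to Insr in level, and their ratio does not depend on a scaling factor per rat. Met divided by Insr was 1.06 (CL5), 1.09 (CL6) and 1.04 (CL7), against 0.966 (FL2), 0.872 (FL5) and 0.822 (FL12). Met was thus above Insr in each CL rat and below it in each FL rat. As FPKM, all FL rats (14.6 to 16.6) lay below all CL rats (18.0 to 19.6). The log2 fold change of -0.26 (95% interval -0.51 to -0.01) was -0.55 relative to the median of all genes and did not pass by limma (adjusted p = 0.125). It passed with median scaling (log2 fold change -0.48, limma, adjusted p = 0.0319) and with quantile normalization (-0.43, adjusted p = 0.0486), and the adjusted p was between 0.0319 and 0.28 over the 14 alternatives. Without FL2, limma gave -0.31 (adjusted p = 0.0779).

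Among 10151 protein-coding genes that averaged 1 FPKM or more, the genes whose course over the 6 rats was most like that of Met were Pygl, Clec14a and Iqgap2. The measure was the root mean square difference of log2 values centred on each gene's mean, and it was 0.03 for Pygl, 0.04 for Clec14a and 0.05 for Iqgap2. Pygl, which encodes liver glycogen phosphorylase, read 66.3 (CL5), 70.0 (CL6) and 64.8 (CL7) FPKM, against 60.6 (FL2), 55.4 (FL5) and 49.7 (FL12) FPKM. FL12 was the lowest rat and CL6 the highest for both Met and Pygl.

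HGF is secreted as an inactive precursor that serine proteases cleave, and 11 of the 12 listed genes of HGF and its activation could be tested. Plau, Plat and St14 were upregulated DEGs, where 9.29% of all genes were. Limma found 0 downregulated ones (0.935% of all genes), with 1 gene lower at an unadjusted p under 0.05 (4.04% of all genes). By the adjusted p, 1 gene was lower with either scaling or without FL2, so that quantile normalization left 0 higher and 1 lower. With a pseudocount of 1 the list held 1 DEG. Plau, the urokinase gene, read 2.03 (CL5), 1.14 (CL6) and 1.31 (CL7) FPKM, against 2.99 (FL2), 4.07 (FL5) and 2.87 (FL12) FPKM (log2 fold change 1.12, limma, adjusted p = 0.0198). Plat, the gene of tissue plasminogen activator, went from 0.873 ± 0.467 to 3.05 ± 1.01 FPKM (log2 fold change 1.75, limma, adjusted p = 0.0215). St14, which encodes the membrane protease matriptase, went from 0.483 ± 0.10 to 1.71 ± 0.654 FPKM (log2 fold change 1.57, limma, adjusted p = 0.0167). The FL rats were above the CL rats for all 3 protease genes. None of the 3 was called with quantile normalization, where their adjusted p-values were 0.117 (Plau), 0.0622 (Plat) and 0.0726 (St14) by limma, the ranges over the alternatives being 0.0157 to 0.117, 0.0156 to 0.0905 and 0.00501 to 0.0726. The list held 1 DEG without CL6 (Plat) and 1 without FL12 (Plau), none without CL7 or FL5, and 4 without FL2. The list median was 0.32, 0.10 with median scaling and 0.04 with quantile normalization, and it took the other sign without CL7 (-0.05). Hgf itself, named after its values were seen, read 5.99 (CL5), 5.96 (CL6) and 5.34 (CL7) FPKM, against 6.86 (FL2), 6.90 (FL5) and 7.89 (FL12) FPKM, and its log2 fold change of 0.32, near the median of all genes, did not pass by limma (adjusted p = 0.106).

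For all 4 FGF receptor genes the groups did not overlap as FPKM. Fgfr2 (ENSRNOG00000016374, chromosome 1) encodes a receptor whose splice forms bind different sets of FGFs in epithelium and mesenchyme, which the gene values do not separate. It read 7.85 (CL5), 7.83 (CL6) and 7.66 (CL7) FPKM, against 14.0 (FL2), 17.6 (FL5) and 19.7 (FL12) FPKM. The CL rats were nearly alike, and the lowest FL rat, FL2, was far above them. Fgfr2 rose from 7.78 ± 0.104 to 17.1 ± 2.89 FPKM (SD, n = 3 rats each), a log2 fold change of 1.11 (standard error 0.14, 95% interval 0.78 to 1.44, limma, adjusted p = 0.00434) and 0.82 relative to the median of all genes. The adjusted p passed in 14 of 14 alternatives (0.00216 to 0.0263). Under median scaling and quantile normalization the log2 fold changes were 0.89 and 0.90, below 2-fold. Without FL2 it was 1.25 (limma, adjusted p = 0.00216).

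Fgfr1 (ENSRNOG00000016050, chromosome 16) encodes a receptor found mainly on mesenchymal cells, and Fgfr3 (ENSRNOG00000016818, chromosome 14) one best known from cartilage. Fgfr1 read 1.63 (CL5), 2.14 (CL6) and 1.83 (CL7) FPKM, against 2.77 (FL2), 3.84 (FL5) and 3.67 (FL12) FPKM. Fgfr3 read 2.58 (CL5), 3.42 (CL6) and 2.96 (CL7) FPKM, against 4.47 (FL2), 4.39 (FL5) and 5.54 (FL12) FPKM. For both genes each FL rat was above each CL rat. Fgfr1 rose by 0.84 on the log2 scale (standard error 0.19, limma, adjusted p = 0.0208) and Fgfr3 by 0.67 (standard error 0.16, limma, adjusted p = 0.0287), which is 0.55 and 0.38 relative to the median of all genes. Fgfr1 passed with median scaling (0.62, limma, adjusted p = 0.047) but not with quantile normalization (0.44, adjusted p = 0.108), and its adjusted p ranged from 0.0119 to 0.108. Fgfr3 passed under neither (0.45, limma, adjusted p = 0.092, and 0.32, adjusted p = 0.216), and its adjusted p ranged from 0.0213 to 0.216. Without FL2 both passed by limma, with adjusted p-values of 0.0119 for Fgfr1 and 0.0346 for Fgfr3. Fgfr1 missed without CL5 (limma, adjusted p = 0.0695), CL7 (0.0772), FL5 (0.0824) or FL12 (0.0707), and so did Fgfr3 (0.0877, 0.0945, 0.0696 and 0.0852).

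Fgfr4 (ENSRNOG00000016763, chromosome 17), the receptor through which hepatocytes sense the bile acid-induced FGF, read 9 (CL5), 8.89 (CL6) and 9.48 (CL7) FPKM, against 10.7 (FL2), 9.81 (FL5) and 11.8 (FL12) FPKM. The FL rats lay above the CL rats by a small margin. The log2 fold change was 0.23 (standard error 0.12, 95% interval -0.04 to 0.50, limma, adjusted p = 0.191), or -0.06 relative to the median of all genes. With median scaling it was 0.01 and with quantile normalization 0.00, and the adjusted p lay between 0.179 and 0.994 over the alternatives.

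**Figure D2:**
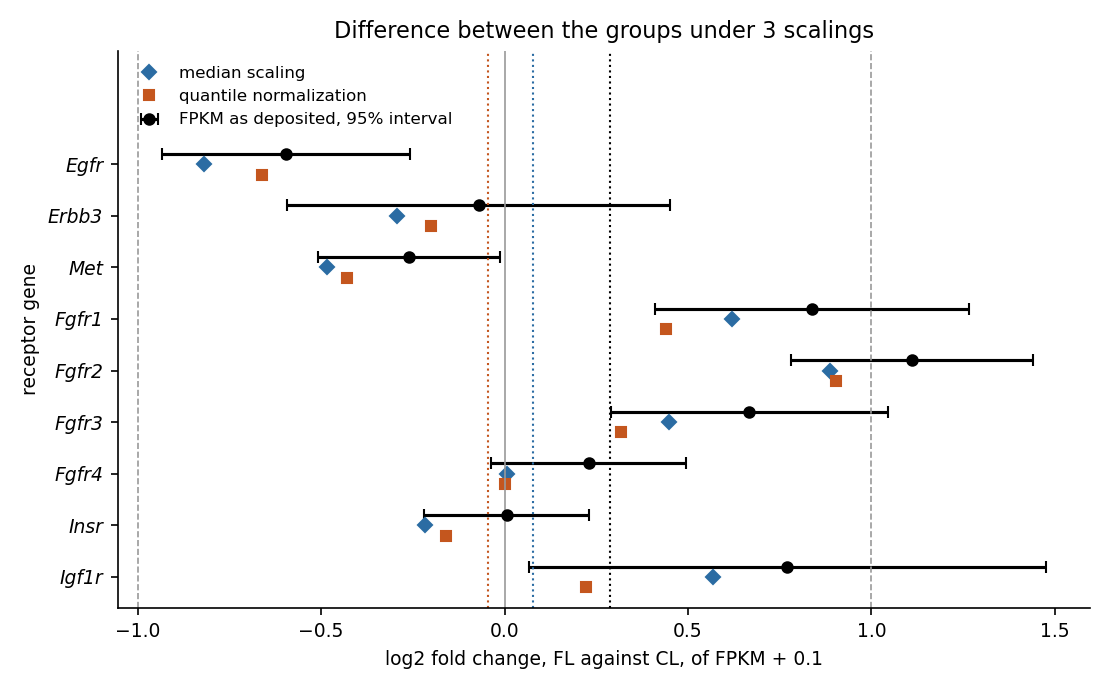
Log2 fold change of FL against CL for the 9 tested receptors, on log2(FPKM + 0.1), from the deposited FPKM (black, with limma's 95% interval), after median scaling (blue) and after quantile normalization (orange). Dotted lines in the same colours mark the median of all genes (0.29, 0.08 and -0.04), dashed lines mark a 2-fold change, and Insr is at 0.01 in black but at -0.22 and -0.16 after the scalings.

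Among the FGF receptors, Fgfr4 led in the CL rats and Fgfr2 in the FL rats, a comparison that a scaling factor per rat leaves unchanged. The ratio of Fgfr2 to Fgfr4 was 0.872 (CL5), 0.881 (CL6) and 0.808 (CL7), against 1.31 (FL2), 1.80 (FL5) and 1.67 (FL12). Fgfr4 was the more abundant in each CL rat and Fgfr2 in each FL rat. Fgfr2 made up 35.8 ± 1.30% of the summed FPKM of the 4 FGF receptors in the CL group and 47.2 ± 2.98% in the FL group, whereas Fgfr4 made up 42.0 ± 1.80% and 30.0 ± 3.10%. Fgfr1 and Fgfr3 kept overlapping shares, 7.74% to 9.61% and 12.3% to 15.4% in the CL rats against 8.70% to 10.8% and 12.3% to 14.0% in the FL rats. The 4 genes summed to 21.1 (CL5), 22.3 (CL6) and 21.9 (CL7) FPKM, against 31.9 (FL2), 35.7 (FL5) and 40.6 (FL12) FPKM. These ratios and sums are descriptions without a test.

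**Figure D3:**
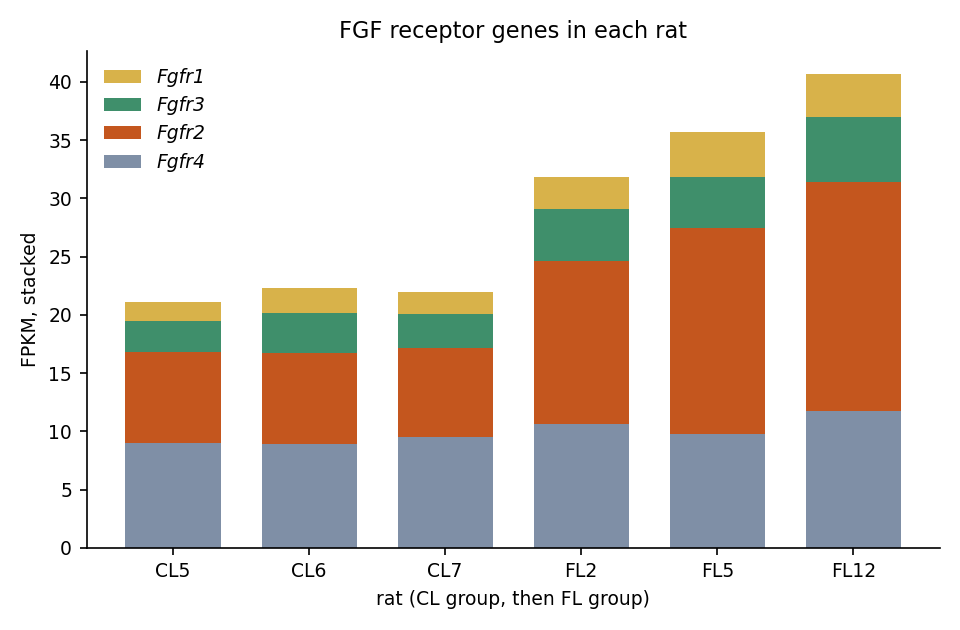
Stacked FPKM of Fgfr4, Fgfr2, Fgfr3 and Fgfr1 (bottom to top) in each rat, with the axis starting at 0. The stacks reach 21.1 to 22.3 FPKM in the CL rats and 31.9 to 40.6 FPKM in the FL rats, and the Fgfr2 segment is shorter than the Fgfr4 segment in each CL rat and longer in each FL rat.

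The genes most like Fgfr2 over the 6 rats, by the same measure and among the same 10151 genes, were Olfml1 (0.05), Parvb (0.06) and Metrnl (0.06). Olfml1, an olfactomedin-like gene, read 1.42 (CL5), 1.38 (CL6) and 1.38 (CL7) FPKM, against 2.36 (FL2), 3.17 (FL5) and 3.71 (FL12) FPKM. Like Fgfr2, it was nearly level among the CL rats, with FL2 the lowest and FL12 the highest of the FL rats.

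Of the 26 listed FGF ligands and co-receptors, 20 were in the table and 9 could be tested, most others being near 0. Fgf21, which encodes a fasting hormone secreted by the liver, and Flrt2, which encodes a membrane protein of the FLRT family, were upregulated DEGs. Over all genes 9.29% were. Fgf21 read 4.65 (CL5), 1.86 (CL6) and 3.11 (CL7) FPKM, against 11.4 (FL2), 5.01 (FL5) and 17.8 (FL12) FPKM (log2 fold change 1.71, limma, adjusted p = 0.0412). Flrt2 went from 0.720 ± 0.266 to 3.22 ± 1.97 FPKM (log2 fold change 1.89, limma, adjusted p = 0.0237). For both, the lowest FL rat was above the highest CL rat, by a small margin for Fgf21. Fgf21 passed in 4 of 14 alternatives (adjusted p from 0.0312 to 0.125) and missed without CL5, CL6, CL7, FL2 or FL12 (limma, adjusted p = 0.0547, 0.119, 0.118, 0.0857 and 0.123). Flrt2 passed in 9 of 14 (0.0104 to 0.0824) and missed without CL5, CL7, FL5 or FL12 (limma, adjusted p = 0.0781, 0.0823, 0.0824 and 0.0597). Median scaling left 1 DEG in the list, Flrt2 (limma, adjusted p = 0.0398). Quantile normalization left 0, with Flrt2 at an adjusted p of 0.074 by limma. Klb, the gene of the co-receptor beta-Klotho, was the most abundant of the list at 14.3 ± 3.83 and 16.4 ± 2.15 FPKM, and its groups overlapped. The list median was 0.22, 0.07 with median scaling and -0.23 with quantile normalization, and it moved to 0.11 without CL7 and 0.13 without FL12. Limma found 0 lower genes, also at an unadjusted p under 0.05 (0 genes, beside 4.04% of all genes).

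Insr (ENSRNOG00000029986, chromosome 12), the insulin receptor gene, had, on unscaled FPKM, the log2 fold change nearest to 0 of the 9 tested receptors, a place that Fgfr4 took with either scaling. It read 17.2 (CL5), 17.9 (CL6) and 17.3 (CL7) FPKM, against 17.2 (FL2), 17.7 (FL5) and 17.7 (FL12) FPKM. The FL rats lay within the range of the CL rats. The log2 fold change was 0.01 (standard error 0.10, 95% interval -0.22 to 0.23, limma, adjusted p = 0.97), which is -0.28 relative to the median of all genes. After median scaling it was -0.22 (limma, adjusted p = 0.162) and after quantile normalization -0.16 (adjusted p = 0.292), within a range of 0.162 to 0.998 over the alternatives. The ratio of Egfr to Insr was 3.61 (CL5), 3.77 (CL6) and 3.74 (CL7), against 2.92 (FL2), 2.49 (FL5) and 2.0 (FL12), without overlap.

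Igf1r (ENSRNOG00000014187, chromosome 1), the receptor of IGF1, is sparse in adult liver and read 0.72 (CL5), 0.80 (CL6) and 0.60 (CL7) FPKM, against 0.78 (FL2), 1.71 (FL5) and 1.51 (FL12) FPKM. FL5 and FL12 were above every CL rat, and FL2 lay among the CL rats. The log2 fold change of 0.77 (standard error 0.31, 95% interval 0.07 to 1.48) did not pass by limma (adjusted p = 0.114). Without FL2 it was 1.09 and passed (limma, adjusted p = 0.017), the 1 of 14 alternatives in which it did, and the adjusted p ranged up to 0.612, with quantile normalization. Insr exceeded Igf1r 23.9, 22.4 and 28.8 times in CL5, CL6 and CL7, and 22.1, 10.3 and 11.7 times in FL2, FL5 and FL12. The rat that set the groups apart least was again FL2.

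Of 13 listed genes of insulin and IGF ligands and binding proteins, 11 could be tested. Igfbp2, Igf2r and Igfbp7 were upregulated DEGs, where 9.29% of all genes were. Igfbp7, which encodes a secreted binding protein, read 22.3 (CL5), 24.6 (CL6) and 27.0 (CL7) FPKM, against 40.6 (FL2), 67.6 (FL5) and 52.7 (FL12) FPKM (log2 fold change 1.09, limma, adjusted p = 0.00949). Igf2r, the gene of the receptor that clears IGF2, went from 6.59 ± 0.786 to 14.0 ± 3.55 FPKM (log2 fold change 1.05, limma, adjusted p = 0.0119). Igfbp2, which encodes an IGF-binding protein of plasma, went from 3.94 ± 3.29 to 16.9 ± 7.77 FPKM (log2 fold change 2.29, limma, adjusted p = 0.0257). All FL rats exceeded all CL rats for these genes. Limma found 0 downregulated DEGs in the list, but 2 genes, named after their values were seen, were lower by the adjusted p (1.94% of all genes). The same 2 were the lower ones at an unadjusted p under 0.05 (4.04% of all genes). Igf1, which encodes the ligand of Igf1r and is made mainly by hepatocytes, fell from 284 ± 25.9 to 152 ± 24.7 FPKM (log2 fold change -0.91, limma, adjusted p = 0.0119). Igfals, which encodes the acid labile subunit of IGF-binding protein, fell from 59.4 ± 3.51 to 42.8 ± 5.08 FPKM (log2 fold change -0.48, limma, adjusted p = 0.0361). Igf1 was a downregulated DEG with median scaling or without FL2, and it missed the threshold without CL7 (limma, adjusted p = 0.0538, the highest of a range that began at 0.00707). Of the 3 upregulated DEGs, Igfbp2 was left with median scaling, none with quantile normalization or without FL5, and Igfbp7 without CL7 or FL12. The adjusted p alone passed in 14 of 14 alternatives for Igfbp7 (0.00427 to 0.0378). It passed in 12 of 14 for Igf2r (0.00452 to 0.0566) and in 8 of 14 for Igfbp2 (0.0137 to 0.098). The list median was 0.30, 0.16 with median scaling and 0.27 with quantile normalization, and it moved to 0.17 without CL7 and 0.69 without FL2.

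By level, the CL rats had the same order throughout, with Egfr first and then Erbb3, Met, Insr, Fgfr4, Fgfr2, Fgfr3, Fgfr1, Igf1r and Erbb2. In the FL rats Egfr and Erbb3 stayed the highest, and Fgfr2 climbed from the sixth place to places 5, 4 and 3 in FL2, FL5 and FL12. Met held the third place in the CL rats and places 4, 5 and 5 in FL2, FL5 and FL12. Means of the FL group were 17.5 ± 0.273 for Insr, 17.1 ± 2.89 for Fgfr2 and 15.5 ± 1.04 FPKM for Met, and Fgfr2 did not differ from Insr or Met beyond its own spread. The ratio of Fgfr2 to Met, 0.431, 0.399 and 0.425 in the CL rats, was 0.839, 1.15 and 1.35 in FL2, FL5 and FL12. The FPKM of the 10 receptors together came to 152 ± 6.46 for CL and 141 ± 8.77 for FL.

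Adaptors link the activated receptors to their cascades, and 28 entries of 33 listed genes could be tested. Grb10, Dok2, Gab2, Dok4 and Dok3 were upregulated DEGs, where 9.29% of all genes were. Limma found 0 downregulated ones, and 0 were lower at an unadjusted p under 0.05 (4.04% of all genes). Gab2, which encodes a docking protein of Grb2, read 1.11 (CL5), 1.17 (CL6) and 1.08 (CL7) FPKM, against 2.53 (FL2), 5.5 (FL5) and 5.20 (FL12) FPKM (log2 fold change 1.81, limma, adjusted p = 0.00712). Dok2 and Dok3, which encode docking proteins of haematopoietic cells, had log2 fold changes of 1.39 and 1.63 (limma, adjusted p = 0.0069 and 0.00686), and Dok4 had 1.15 (adjusted p = 0.0188), passing in 10 of 14 alternatives (0.0193 to 0.136). Grb10, which encodes an inhibitory partner of the insulin and IGF1 receptors, had 1.15 (limma, adjusted p = 0.0473) and passed in 3 of 13 alternatives (0.0229 to 0.22). For each of the 5 the groups did not overlap, and their levels in the FL group stayed below 6 FPKM in every rat. The list held 3 DEGs without CL5, CL7 or FL5, 3 with median scaling or a mean of 1 FPKM or more, 2 with quantile normalization and 1 with a pseudocount of 1. The list median was 0.30, 0.07 with median scaling and 0.06 with quantile normalization.

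Feedback inhibitors and trafficking genes turn the receptors off or release their ligands, and 36 of 40 listed genes could be tested. Rhbdf2 and Ptpre were upregulated DEGs, where 9.29% of all genes were. Limma found 0 downregulated DEGs, with 4 genes lower at an unadjusted p under 0.05 (4.04% of all genes). By the adjusted p the list had 7 higher and 0 lower genes of 36, a share of higher genes close to the 16.9% of all genes, but median scaling gave 5 higher and 5 lower genes, and quantile normalization 3 higher and 4 lower ones. Rhbdf2, which encodes iRhom2, a partner of the protease that sheds EGF receptor ligands, read 0.53 (CL5), 0.78 (CL6) and 0.96 (CL7) FPKM, against 2.76 (FL2), 2.21 (FL5) and 2.41 (FL12) FPKM (log2 fold change 1.61, limma, adjusted p = 0.00576). Ptpre, which encodes a tyrosine phosphatase, went from 0.497 ± 0.0351 to 1.84 ± 0.362 FPKM (log2 fold change 1.69, limma, adjusted p = 0.00437). All FL rats were above all CL rats for both genes, and both passed in 14 of 14 alternatives (adjusted p from 0.00494 to 0.0347 and from 0.00428 to 0.0252). With a pseudocount of 1 both were below 2-fold (log2 fold changes 0.98 and 0.92) and thus no DEGs, and without CL5 the list had 1 downregulated DEG. Errfi1, which encodes an inhibitor of the EGF receptor kinase and was the most abundant of the list, overlapped between the groups at 195 ± 54.9 and 211 ± 16.7 FPKM. The list median was 0.29, 0.06 with median scaling and -0.04 with quantile normalization, each close to that of all genes, and it moved to 0.15 without CL5 and 0.19 without FL12.

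Many cell types of the liver carry these receptors, and markers of 7 cell types or states were therefore listed, to be read against the 9.29% of all genes that were upregulated DEGs. For cholangiocyte (1 of 9) and endothelial markers (1 of 10) the share was close to that of all genes. The 15 hepatocyte markers, led by Alb, summed to 59340 (CL5), 56330 (CL6) and 57960 (CL7) FPKM, against 49990 (FL2), 50310 (FL5) and 48330 (FL12) FPKM. By limma 0 of their 16 entries were DEGs, with 2 higher and 1 lower at an unadjusted p under 0.05. Without overlap, 5 entries were lower in the FL group (Alb, Ttr, Apoc3, Ass1 and Hnf4a) and 2 higher (Tf and Apoa1). Over all genes these shares were 4.78% and 35.7%. Limma's error draws also on genes of similar level, and it was 0.98 for Alb (log2 fold change -0.38) and 0.42 for Ttr (-0.63). With errors of this size limma could hardly call such changes. By these sums, the tissue label had its defining markers at high level in every rat. Of 11 stellate cell or myofibroblast markers tested, 5 were upregulated DEGs, and the list, led by Col3a1, summed to 91.7 (CL5), 99.6 (CL6) and 90.5 (CL7) FPKM, against 216 (FL2), 566 (FL5) and 516 (FL12) FPKM. Of 12 macrophage markers 4 were upregulated DEGs, and the list, led by C1qc, summed to 213 (CL5), 211 (CL6) and 211 (CL7) FPKM, against 436 (FL2), 430 (FL5) and 276 (FL12) FPKM. Both sums were thus higher in every FL rat, with FL2 the lowest of the FL rats for the first and the highest for the second. Of 9 cholangiocyte markers 1 was an upregulated DEG, and the list, led by Spp1, summed to 10.7 (CL5), 16.4 (CL6) and 11.2 (CL7) FPKM, against 19.4 (FL2), 75.7 (FL5) and 49.7 (FL12) FPKM. Without Spp1 the cholangiocyte sums overlapped (13.5 FPKM in CL6 and 12.1 FPKM in FL2). Without Alb the hepatocyte sums overlapped as unscaled FPKM. With Alb they did not overlap, also after median scaling (58780 to 65190 in the CL rats, 43120 to 48680 in the FL rats). Without Cd4 the lymphocyte sum of FL12 (3.31 FPKM) was level with that of CL7 (3.29 FPKM). Of 10 endothelial markers 1 was an upregulated DEG, and the list, led by Kdr, summed to 101, 101 and 91.0 FPKM in the CL rats and to 122 (FL2), 107 (FL5) and 120 (FL12) FPKM. The endothelial sums did not overlap as FPKM but did after median scaling, where FL5 was the lowest of the 6 rats (97.5). Lymphocyte markers (2 of 9 tested upregulated, led by Cd4) summed to 12.4, 10.5 and 11.5 FPKM in the CL rats and to 24.3 (FL2), 31.4 (FL5) and 24.6 (FL12) FPKM. Cycling cell markers (3 of 10, led by Mki67) summed to 3.59, 6.90 and 4.55 FPKM in the CL rats and to 6.15 (FL2), 28.4 (FL5) and 24.3 (FL12) FPKM. The cycling marker sum of FL2 lay within the range of the CL rats, although FL2 was above every CL rat for the 3 cycling DEGs. No marker was at 0 in all 6 rats. Without FL2 the upregulated DEGs numbered 7 for stellate cell, 3 for cholangiocyte and 10 for cycling markers, the last falling to none without CL5, CL7, FL5 or FL12. The 1 cholangiocyte marker was not called without CL7, FL5 or FL12, the 1 endothelial marker was lost whenever a rat other than FL2 was left out, and lymphocyte markers numbered 1 without CL5, CL6 or FL5. Either scaling lost the endothelial DEG and left 1 lymphocyte and 3 macrophage DEGs, and the cycling DEGs numbered 2 after median scaling and none after quantile normalization. A pseudocount of 1 and limma without trend also lost the endothelial DEG, and that pseudocount left 1 lymphocyte and 1 cycling DEG. Without FL2, 1 hepatocyte marker was an upregulated and 1 a downregulated DEG. The part of these cell types in the receptor results was not tested.

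Promoter windows, the 250 bases before the start that the RefSeq promoter table (build GRCr8) lists for a gene, were matched for 8 of the 10 receptors, and Fgfr1 and Erbb3 had no entry. The letters GGGCGG, on either strand, stood in 6 of the 8 windows and in 30.5% of 33469 rat promoters of the same length. TATAAA on either strand stood in 0 of the 8 and in 12.9% of all promoters, and TGANTCA, which reads the same on both strands, in 0 of the 8 and 6.34%. The median share of G and C was 70.2% in the 8 windows and 51.2% over all promoters. The windows of Met and Insr, the 2 without GGGCGG, lie inside the gene as RefSeq places it, and so do not precede its outermost start. Printed below are the 3 receptors with an entry that passed the adjusted p threshold, with GGGCGG or its complement CCGCCC in capitals, each on the strand of its gene. Fgfr2 is at chr1:194280915-194281164 on the minus strand, Fgfr3 at chr14:81227210-81227459 on the minus strand and Egfr at chr14:95378376-95378625 on the plus strand, and they hold 2, 3 and 1 matches. The matches are a description of these windows.
Fgfr2: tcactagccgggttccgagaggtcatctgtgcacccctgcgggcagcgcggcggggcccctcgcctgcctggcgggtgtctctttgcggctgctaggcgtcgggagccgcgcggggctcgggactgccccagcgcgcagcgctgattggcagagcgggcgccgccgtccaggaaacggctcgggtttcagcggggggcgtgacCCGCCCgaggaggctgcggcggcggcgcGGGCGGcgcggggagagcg
Fgfr3: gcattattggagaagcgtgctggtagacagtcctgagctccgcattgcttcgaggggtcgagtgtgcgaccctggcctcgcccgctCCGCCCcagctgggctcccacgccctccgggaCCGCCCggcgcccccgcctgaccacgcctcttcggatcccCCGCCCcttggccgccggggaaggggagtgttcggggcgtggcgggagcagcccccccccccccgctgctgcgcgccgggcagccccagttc
Egfr: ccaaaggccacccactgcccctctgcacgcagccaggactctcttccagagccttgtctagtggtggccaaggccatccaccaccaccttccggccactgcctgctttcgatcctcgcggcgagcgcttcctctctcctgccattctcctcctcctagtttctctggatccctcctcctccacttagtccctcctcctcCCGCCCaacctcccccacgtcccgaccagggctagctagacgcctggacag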

How the data were processed

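The FPKM values were deposited by the authors, who aligned reads with TopHat2 and computed FPKM per gene. The genome is named GRCh38 in the submitters' notes, although the gene identifiers are Ensembl rat ones, and the strand of counting is not given in the sources used here. 2 value columns that match no sample were not used. The authors used edgeR, which needs counts, so limma 3.58.1 in R 4.3.3 was run here on log2(FPKM + 0.1), with a mean-dependent prior variance (trend) and Benjamini-Hochberg adjustment over 14864 genes, those averaging 0.1 FPKM or more in the 6 rats. DEGs have an adjusted p under 0.05 and at least a 2-fold change. The code was tested on simulated data.

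The receptors, 9 lists (EGF family ligands, HGF and its activation, FGF ligands and co-receptors, insulin and IGF ligands and binding proteins, adaptors, feedback and trafficking, other receptor tyrosine kinases, the ERK cascade, the PI3K and Akt core) and 7 marker lists were chosen with earlier results of these data known. From a list, genes are named when they are DEGs or the most abundant gene of the list. Others were named after their values were seen and are marked so, except Areg and the hepatocyte markers other than Alb. Alternatives were pseudocounts of 1 and 0.01, no filter, a mean of at least 1 FPKM, median scaling (over 9201 genes), quantile normalization, limma without trend, limma with a robust prior, and each rat left out. Relative depth came from the most frequent nonzero FPKM value among the U6 genes of each rat (the lowest if tied). The smallest of these values over the rats was divided by that of each rat. Tables and figures used Python 3.11.15 with numpy 2.4.6, pandas 2.3.3 and matplotlib 3.10.9.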

Additional observations from a re-analysis of the deposited data

How the results depend on the processing

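Over all genes, the main analysis gave 1381 upregulated and 139 downregulated DEGs. The upregulated count was 462 with a pseudocount of 1, 854 with a mean of at least 1 FPKM, 826 with median scaling, 453 with quantile normalization, 2518 with no limit on the fold change, and 682 (without FL5) to 1833 (without FL2) with 1 rat left out. The downregulated count was 72 with a pseudocount of 1, 181 with median scaling, 231 with quantile normalization, 288 with no limit on the fold change, and 80 (without CL6 or CL7) to 159 (without FL2) with 1 rat left out. The split between higher and lower genes thus moved with scaling.

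Among the receptors, 1 upregulated DEG became 0 with median scaling, 0 with quantile normalization, 3 with no limit on the fold change, and 1 to 2 with 1 rat left out. The 3 receptors higher by the adjusted p became 2 with median scaling, 1 with quantile normalization and 1 to 4 with 1 rat left out. The 0 downregulated DEGs became 1 with no limit on the fold change. The 1 receptor lower by the adjusted p became 2 with median scaling, 2 with quantile normalization, 0 with limma without trend, and 0 to 1 with 1 rat left out. The median log2 fold change of 0.23 became 0.0074 with median scaling, 0.0019 with quantile normalization, and 0.16 to 0.29 with 1 rat left out. For why FL2 stands apart in fibrosis genes such as Col1a1, the cause was not tested. No paired analysis was possible because the groups are separate rats.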

Other observations

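Other receptor tyrosine kinases were a list of 48 genes, of which 44 were in the table and 31 could be tested. Ptk7, Csf1r, Pdgfra and Pdgfrb were upregulated DEGs (9.29% of all genes), and 9 genes were higher by the adjusted p (16.9% of all genes). Limma found 0 downregulated DEGs, with 0 genes lower at an unadjusted p under 0.05 (4.04% of all genes). Csf1r, the receptor of macrophage colony stimulating factor, went from 8.43 ± 0.440 to 18.7 ± 3.40 FPKM (log2 fold change 1.13, limma, adjusted p = 0.00439). Pdgfrb, a platelet-derived growth factor receptor of stellate cells, went from 2.79 ± 0.319 to 9.61 ± 3.57 FPKM (log2 fold change 1.69, limma, adjusted p = 0.00688). The list held 8 upregulated DEGs without FL2, 1 without FL5, and 2 each with median scaling, quantile normalization or a pseudocount of 1. The list median was 0.57, 0.40 with median scaling and 0.13 with quantile normalization, beside 0.29, 0.08 and -0.04 for all genes.

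The ERK cascade list had 12 genes, all tested, and limma found 0 DEGs in either direction, with 3 genes higher and 0 lower at an unadjusted p under 0.05. By the adjusted p, 2 genes were higher and 0 lower (16.9% and 1.94% of all genes). With either median scaling or quantile normalization, 0 were higher and 2 lower. Nras (log2 fold change 0.57, limma, adjusted p = 0.0214), named after its values were seen, was higher by the adjusted p. Map2k2, which encodes a kinase that activates ERK, was the most abundant at 40.0 ± 1.75 and 39.7 ± 2.28 FPKM. The list median of 0.12 changed sign with median scaling (-0.10) and quantile normalization (-0.08), and it moved to 0.22 without CL5, 0.24 without FL2 and 0.08 without FL5 or FL12. Without FL2, 4 genes were higher by the adjusted p.

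The PI3K and Akt core list had 22 genes, all tested. Pik3r5, Pik3cd, Inpp5d and Pik3r3 were upregulated DEGs, where 9.29% of all genes were. Limma found 0 downregulated ones, with 0 lower at an unadjusted p under 0.05 (4.04% of all genes). By the adjusted p, 7 genes were higher and 0 lower (16.9% and 1.94% of all genes). Median scaling left 2 upregulated DEGs, with 5 genes higher and 1 lower by the adjusted p. Quantile normalization also left 2, with 4 genes higher and 1 lower. The list held 1 DEG with a pseudocount of 1 and 6 without FL2, and Pik3r3 passed the adjusted p in 7 of 14 alternatives. Inpp5d, which encodes a phosphatase of blood cells that opposes PI3K, went from 1.40 ± 0.0854 to 3.19 ± 0.308 FPKM (log2 fold change 1.13, limma, adjusted p = 0.00493). The list median of 0.24 was 0.02 with median scaling and -0.02 with quantile normalization.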
